A study of Homo sapiens with 18 samples.

Results

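The late response of OVCAR-3 cells to i-BET858 was read from 6 RNA-seq libraries, 3 biological replicates treated with i-BET858 and 3 DMSO controls, taken from a series of 18. OVCAR-3 is an established cell line of high-grade serous ovarian carcinoma. Both groups were grown in 12-well plates in stripped medium and harvested after 24 h with 1 µM of the inhibitor or with the vehicle, so that medium and time were shared and the compound differed. The cells came from 1 line. The other 12 libraries hold the same compounds at 4 h and i-BET151, another inhibitor of BET proteins, at both times. They serve for comparison with the late response, and those of i-BET151 at 24 h also entered the fit behind the calls. Every one of the 58825 genes of the count table was considered, and 17157 passed the filter on low counts and were tested.

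BET proteins are readers of acetylated histones. Through paired bromodomains they sit on acetylated promoters and enhancers, where they help to bring the kinase complex P-TEFb to paused RNA polymerase II. Inhibitors of this class occupy the acetyl-lysine pocket and are designed to displace these proteins from chromatin. Transcripts driven by strong enhancers are known to be among the most sensitive. At the promoters it examined, ZHX2, BCL2L1 and TOPBP1 among them, the study saw only minor changes of BET protein binding with i-BET858. Binding was not measured in these libraries. A release of P-TEFb from its inhibitory 7SK particle, with a rise of the 7SK protein HEXIM1, is a known accompaniment.

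The depth was 27534213 to 30732002 counts with DMSO and 36427001 to 46299994 with i-BET858, so that each treated library was deeper than each control. In these 6 libraries, 3 counts correspond to 0.0654 to 0.103 CPM (counts scaled to a library of common size, with TMM factors), the limit that a count of 0 allows from counting error alone. Replicate 3 had counts for 18634 and 18987 genes against 23990 to 24947 in replicates 1 and 2 of the same groups, and the leading counts are therefore also given for replicates 1 and 2 alone. Markers of the serous lineage were present. PAX8 went from 503 ± 84.3 to 495 ± 7.28 CPM between DMSO and i-BET858, WT1 from 153 ± 2.53 to 145 ± 5.17 CPM, MUC16 (CA125) from 207 ± 133 to 169.8 ± 74.9 CPM and EPCAM from 421 ± 54.8 to 428 ± 53 CPM, none of them called. These 4 were chosen after their values were seen from a list of 20, of which 3 fell and 14 had a log2 fold change below 0. Of 14 markers of leukocytes, endothelium and fibroblasts, 9 did not pass the filter, and the summed level of the 5 that did lay at 32.6, 32.8 and 44.2 CPM with DMSO and 26.4, 23.7 and 34.8 CPM with i-BET858, most of it COL1A1. Beside COL1A1, each of them stood under 4 CPM in the mean of either group.

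After 24 h, 3234 transcripts differed from the DMSO control, 18.8% of those tested: 1312 were higher (7.65%) and 1922 were lower (11.2%). Calls required a change of at least 2-fold and, in the quasi-likelihood test of edgeR, an adjusted p (Benjamini-Hochberg) under 0.05, and the words rose and fell are kept for these calls. Both log2 fold changes and their standard errors (SE) come from that fit, and levels are mean CPM ± SD of 3 libraries. The falls were deeper than the rises. Among the transcripts called lower the median log2 fold change was −1.75 and 758 changed by more than 4-fold, against 1.52 and 365 among those called higher. More than 8-fold changes numbered 341 and 149. The median over all tested transcripts was −0.01. Of the calls, 3214 went one way in each of the 9 comparisons between a single treated and a single control library, and the groups did not overlap in 54.8% of all tested transcripts. Replicates 1 and 2 alone gave 4162 calls (1639 higher and 2523 lower).

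By share of the summed CPM of all tested transcripts, those called higher held 3.53% with DMSO and 8.72% with i-BET858, a gain of 55790 CPM. Transcripts called lower went from 6.70% to 2.29%, and their sum fell by 41586 CPM. The sum over the transcripts not called was also higher with i-BET858, by 46064 CPM, since with TMM factors the summed CPM of all tested transcripts was 6.19% higher than with DMSO, an offset that is part of these sums. When scaled to library size, 1107 transcripts were called higher and 2130 lower. The median level of the transcripts called higher was 5.21 CPM with DMSO and 16.8 CPM with i-BET858, and of those called lower 9.39 and 2.62 CPM. CPM are relative to the library, so that a change in the total RNA of a cell cannot be seen in them.

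**Figure D1:**
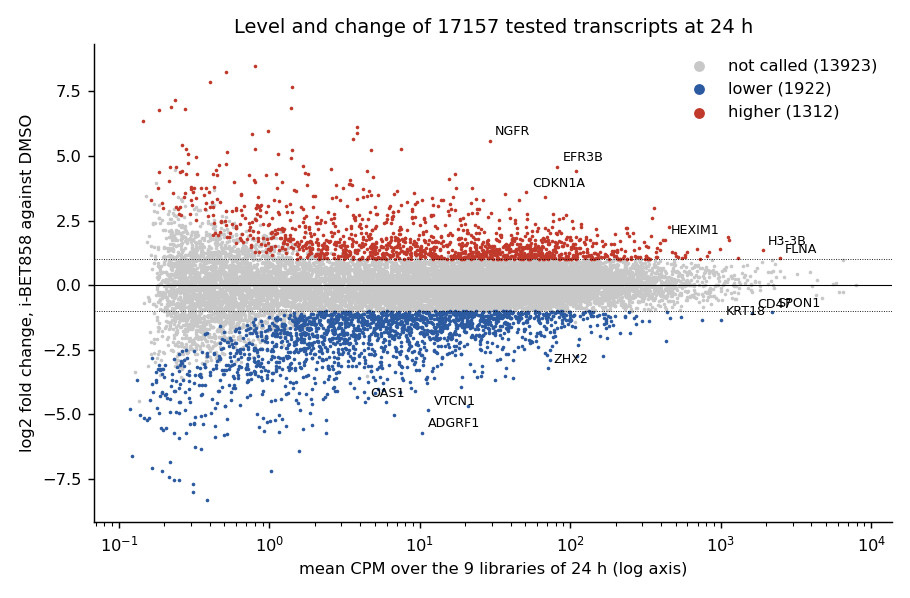
Log2 fold change of i-BET858 against DMSO at 24 h (vertical axis) against the mean CPM over the 9 libraries of 24 h, those of i-BET151 included (horizontal log axis) for the 17157 tested transcripts; red points were called higher (1312), blue points lower (1922) and grey points not called (13923), and dotted lines mark a 2-fold change. Red and blue points reach from under 1 CPM to above 1000 CPM, and since the level includes treated libraries, a fall moves a point to the left and a rise to the right.

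The compound's own targets and the markers of BET inhibition were examined next. BRD2 had 149.6, 168 and 104 CPM in DMSO replicates 1, 2 and 3 and 256, 302 and 287 CPM in those treated with i-BET858, so that the groups did not overlap (edgeR, log2 fold change 1.00 ± 0.156 SE, adjusted p = 0.00046). Its call lay at the 2-fold threshold and was lost without DMSO replicate 3 (0.84), without i-BET858 replicate 2 (0.95) and in replicates 1 and 2 alone (0.81). BRD3 went from 68.9 to 98.4 CPM, with a log2 fold change of 0.51 ± 0.135 (adjusted p = 0.0105), under 2-fold. BRDT, the testis member, did not pass the filter on low counts. HEXIM1, which holds P-TEFb inactive in the 7SK particle, had 203, 210.3 and 174 CPM with DMSO and 679, 714 and 589 CPM with i-BET858 (edgeR, log2 fold change 1.76 ± 0.117 SE, adjusted p = 1.88e-06), a rise seen in all 9 pairs. The other 6 of 7 genes of P-TEFb and the 7SK particle were not called. The kinase CDK9 went from 113 to 129 CPM, its cyclins CCNT1 and CCNT2 from 80.0 to 101 CPM and from 34.2 to 30.9 CPM, the paralogue HEXIM2 from 1.74 to 1.25 CPM, and the 7SK proteins LARP7 and MEPCE from 29.8 to 26.6 CPM and from 127 to 117 CPM. Of 4 known response markers 3 rose, HEXIM1, the neuronal serpin SERPINI1 and ZCCHC24. SERPINI1 had 1.87, 1.65 and 1.47 CPM with DMSO and 34.5, 30.6 and 22.2 CPM with i-BET858, and ZCCHC24 had 3.36, 3.75 and 2.78 CPM with DMSO and 23.9, 21.6 and 27.0 CPM with i-BET858. For both, every treated library lay above every control. The fourth, ZMYND8, a reader of modified histones, went from 36.3 ± 6.82 to 43.5 ± 8.31 CPM and was not called at 24 h (log2 fold change 0.26 ± 0.177).

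Among the inhibitors of cyclin-dependent kinases, CDKN1A (p21) had the largest fold change. It had 9.55, 7.58 and 6.46 CPM in DMSO replicates 1, 2 and 3 and 85.4, 87.0 and 115 CPM in those treated with i-BET858, a rise in which the lowest treated library lay far above the highest control (edgeR, log2 fold change 3.60 ± 0.174 SE, adjusted p = 5.54e-07). CDKN2D (p19INK4D) rose from 19.3 ± 1.18 to 83.0 ± 9.16 CPM, and CDKN1C (p57) from 15.1 ± 2.30 to 43.4 ± 6.72 CPM. CDKN2B (p15INK4B) went from 33.7 ± 0.549 to 66.3 ± 1.53 CPM, and with a log2 fold change of 0.97 ± 0.0870 it stood just under the threshold, which it passed without DMSO replicate 3 (1.00). CDKN2A (p16INK4A and p14ARF) moved the other way, from 452 ± 139 to 239 ± 33.3 CPM (log2 fold change −0.92 ± 0.199, adjusted p = 0.00361). It was not called, but it passed the 2-fold threshold without DMSO replicate 1 (−1.05), without DMSO replicate 2 (−1.02) or without i-BET858 replicate 3 (−1.01). CDKN1B (p27) and CDKN2C were not called, with means from 115 to 120 CPM and from 7.06 to 5.68 CPM. Of 10 G1 cyclins, kinases and pocket proteins, the kinase CDK6 fell (148 ± 11 to 62.5 ± 8.85 CPM) and the cyclin CCND3 rose (48.2 ± 12.4 to 99.8 ± 20.9 CPM), the latter only just (log2 fold change 1.05 ± 0.201; 0.89 without i-BET858 replicate 3, 0.92 without DMSO replicate 1 and 0.98 without DMSO replicate 2, each under 2-fold). The S-phase activator E2F2 fell from 29.1 ± 2.82 to 6.95 ± 1.40 CPM and the repressor E2F8 from 28.6 ± 4.15 to 12.2 ± 3.18 CPM, and the other 8 genes of the E2F and DP list were not called.

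The largest fold changes are given among protein-coding genes whose log2 CPM averaged 1 or more. SH3GL2, a synaptic endophilin, had 0.0934, 0.172 and 0 CPM in DMSO replicates 1, 2 and 3 and 6.15, 5.91 and 4.42 CPM in those treated with i-BET858, from a control level of 0 to 5 counts a library (edgeR, log2 fold change 5.91 ± 0.509 SE, adjusted p = 9.44e-06). The control level of GFPT2, an enzyme of the hexosamine pathway, was as low, with 0.280, 0.103 and 0 CPM with DMSO and 6.61, 6.28 and 7.42 CPM with i-BET858. MAFA, a basic leucine zipper factor of pancreatic beta cells, had 0.436, 0.654 and 0 CPM with DMSO and 13.7, 14.9 and 14.4 CPM with i-BET858, and DISP3, a sterol-sensing membrane protein, had 0.405, 0.379 and 0 CPM with DMSO and 9.44, 9.05 and 11.4 CPM with i-BET858. The groups did not overlap in any of these 4 genes, but they had no count in DMSO replicate 3, and the size of their fold change rests on few control counts. For NGFR and EFR3B the control level was better measured. NGFR, the low-affinity neurotrophin receptor at chr17:49495293-49515008 (GRCh38), had 1.46, 1.45 and 0.435 CPM with DMSO and 52.9, 55.6 and 53.1 CPM with i-BET858 (edgeR, log2 fold change 5.59 ± 0.301 SE, adjusted p = 7.07e-07). EFR3B, which anchors a phosphatidylinositol kinase to the plasma membrane, had 5.73, 6.72 and 4.02 CPM with DMSO and 139, 129 and 129 CPM with i-BET858, and the treated libraries lay within a narrow band (edgeR, log2 fold change 4.59 ± 0.171 SE, adjusted p = 1.54e-07).

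The largest falls left transcripts under 4 CPM in every treated library. ADGRF1, an adhesion receptor at chr6:46997708-47042350, had 26.5, 23.7 and 37.9 CPM in DMSO replicates 1, 2 and 3 and 0.763, 0.504 and 0.383 CPM in those treated with i-BET858 (edgeR, log2 fold change −5.70 ± 0.299 SE, adjusted p = 6.53e-07). CRB2, an apical polarity protein, had 6.75, 7.51 and 6.09 CPM with DMSO and 0.218, 0.140 and 0 CPM with i-BET858. VTCN1 (B7-H4), a coinhibitory ligand of T cells known for its expression on ovarian carcinoma, had 33.0, 24.9 and 36.6 CPM with DMSO and 0.611, 1.06 and 1.71 CPM with i-BET858 (edgeR, log2 fold change −4.82 ± 0.492 SE, adjusted p = 2.76e-05). LIX1 had 37.1, 41.3 and 92.2 CPM with DMSO and 1.24, 1.54 and 3.95 CPM with i-BET858, the endoplasmic reticulum protein ERP27 had 23.4, 20.2 and 13.3 CPM with DMSO and 0.785, 0.336 and 0.589 CPM with i-BET858, and the interferon-induced IFI44L had 5.63, 4.44 and 9.31 CPM with DMSO and 0.196, 0.0841 and 0.236 CPM with i-BET858. In each of these 6 genes, the highest treated library lay below the lowest control. CRB2 shares exon sequence on the opposite strand with DENND1A, as NGFR, CDKN1A and MYCN do with antisense genes, and the strand setting of the counting is not given in the sources used here.

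By absolute change the order of the called protein-coding genes was another. Among the largest gains of mean CPM were those of FLNA, a crosslinker of actin filaments, from 1592 ± 145 to 3300 ± 362 CPM, and H3-3B, one of the genes of the replication-independent histone H3.3, from 1037 ± 33.5 to 2668 ± 110 CPM. The membrane skeleton protein SPTAN1 went from 469.6 ± 69.9 to 1569 ± 118 CPM. The segregase VCP went from 843 ± 88.9 to 1729 ± 97.1 CPM and the thioredoxin reductase TXNRD1 from 502 ± 41.0 to 1309 ± 110 CPM. The largest losses among these called genes were those of SPON1 and CD47. SPON1, a secreted matrix protein abundant in ovarian tumours, went from 3249 ± 190 to 1572 ± 281 CPM. CD47, the ligand by which cells inhibit phagocytosis, went from 2359 ± 214 to 1119 ± 14.4 CPM. The keratin KRT8, given below with the lineage markers, lost more CPM than CD47 but was not called. The keratin KRT18 went from 1593 ± 85.4 to 620.4 ± 34.0 CPM, carbonic anhydrase CA2 from 907 ± 19.2 to 203 ± 43.4 CPM, the ligand BMP7 from 1100 ± 78.7 to 438 ± 26.4 CPM and the collagen chaperone SERPINH1 from 912 ± 24.2 to 394 ± 26.4 CPM. Log2 fold changes here ran from 1.04 for VCP and 1.05 for FLNA to 1.74 for SPTAN1, and from −1.05 for SPON1 and −1.08 for CD47 to −2.16 for CA2. H3-3B has near-identical processed copies, which makes its share of reads uncertain. The calls of FLNA, VCP, SPON1 and CD47 lay close to the threshold and were lost for FLNA without i-BET858 replicate 3 (0.98), for VCP without DMSO replicate 1 (0.99), for SPON1 without DMSO replicate 3 (−0.98) or i-BET858 replicate 2 (−0.95), and for CD47 without DMSO replicate 3 (−0.98). The adjusted p stayed under 0.05 in each of these fits.

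**Figure D2:**
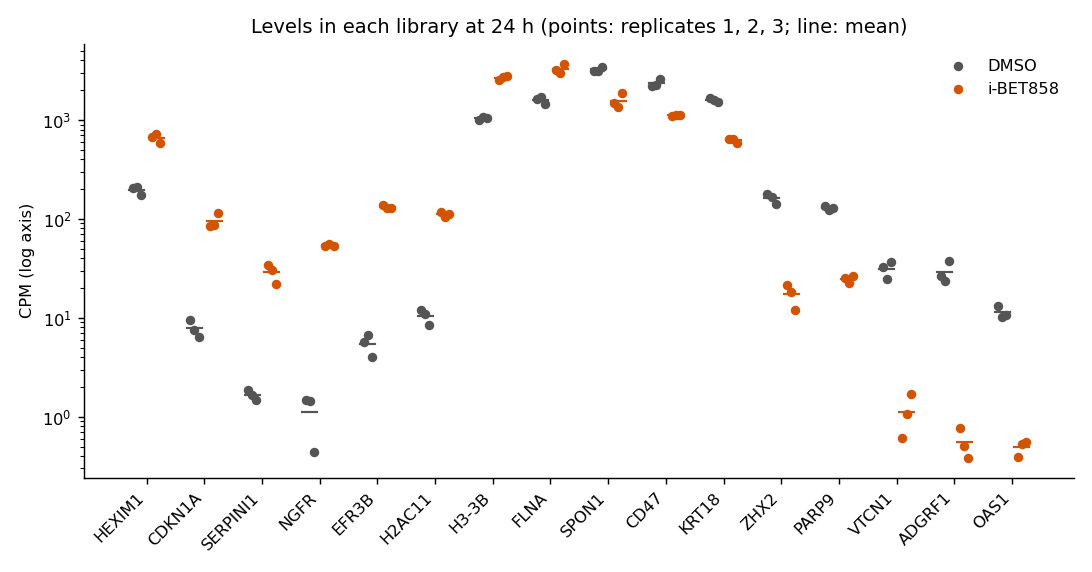
CPM of 16 named transcripts in each library at 24 h on a log axis; grey points are the DMSO libraries, orange points those with i-BET858, in the order of replicates 1, 2 and 3, and lines are the means of 3. In none of the 16 transcripts did the 2 groups overlap.

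Core histone genes had the largest share of rises among the 70 lists and families examined. The genes of the core histone clusters encode the bulk H2A, H2B, H3 and H4 of replicating chromatin. Of 58 listed, 43 passed the filter and 33 of these were called higher (76.7%, against 7.65% of all tested), with a median log2 fold change of 2.25 over the members tested, and 36 were called in replicates 1 and 2 alone. The other 10 tested members were not called. Their summed level was 480.3, 512 and 528 CPM in DMSO replicates 1, 2 and 3 and 2178, 2161 and 2023 CPM in those treated with i-BET858, without overlap of the groups. H2AC11 had 11.9, 10.9 and 8.54 CPM with DMSO and 116, 106 and 113 CPM with i-BET858 (edgeR, log2 fold change 3.41 ± 0.167 SE, adjusted p = 5.66e-07). H3C8 had 4.36, 4.31 and 4.05 CPM with DMSO and 37.9, 39.9 and 37.6 CPM with i-BET858 (edgeR, log2 fold change 3.18 ± 0.126 SE, adjusted p = 2.11e-07), and H2BC4 had 29.4, 32.9 and 38.5 CPM with DMSO and 149.5, 150 and 173 CPM with i-BET858 (edgeR, log2 fold change 2.23 ± 0.131 SE, adjusted p = 1.04e-06). The groups did not overlap in any of the 3. Rises were found among the genes of H2A, H2B, H3 and H4. H2AC6 went from 94.5 ± 11 to 385 ± 22.9 CPM, H2BC21 from 69.3 ± 17.5 to 320.3 ± 47.8 CPM and H4C8 from 22.3 ± 2.14 to 147 ± 20.8 CPM. Most transcripts of these genes end in a stem-loop instead of a poly-A tail, and the libraries were enriched for poly-A, so that the counts cover the polyadenylated fraction, and a change in tailing cannot be told apart from a change in amount. The copies are also near-identical, which makes the split of reads between them uncertain.

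Linker histones bind where DNA enters the nucleosome and compact chromatin. Of 6 tested, 4 rose. H1-10, a variant whose transcript is polyadenylated, rose from 375 ± 71.9 to 989 ± 126 CPM. The clustered H1-2 rose from 140.5 ± 18.3 to 533 ± 36.8 CPM and H1-4 from 1.02 ± 0.252 to 6.17 ± 0.844 CPM. H1-3 and H1-5 were under 1 CPM in the means of both groups and were not called, although H1-3 was called higher in replicates 1 and 2 alone (log2 fold change 2.09).

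The sequence before the start sites of 3 core histone genes is shown, since these genes moved together and H3C8, H2AC11 and H2BC4 had the smallest adjusted p among those with an entry in the RefSeq promoter table (GRCh38.p14). Each run is the 200 bases before the start, read 5′ to 3′ on the strand of the gene, with matches to CCAAT and TATAAA on either strand in capitals. The windows are chr6:26271414-26271613 on the minus strand, chr6:27132843-27133042 on the plus strand and chr6:26123927-26124126 on the minus strand.
H3C8: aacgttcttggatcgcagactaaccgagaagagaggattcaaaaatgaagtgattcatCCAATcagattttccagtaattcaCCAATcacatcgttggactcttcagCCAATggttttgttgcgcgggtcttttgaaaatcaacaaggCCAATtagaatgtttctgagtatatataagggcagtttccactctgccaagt
H2AC11: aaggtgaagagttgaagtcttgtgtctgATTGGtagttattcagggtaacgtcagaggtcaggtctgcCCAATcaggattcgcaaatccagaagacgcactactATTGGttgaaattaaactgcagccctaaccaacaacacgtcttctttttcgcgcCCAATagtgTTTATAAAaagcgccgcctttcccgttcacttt
H2BC4: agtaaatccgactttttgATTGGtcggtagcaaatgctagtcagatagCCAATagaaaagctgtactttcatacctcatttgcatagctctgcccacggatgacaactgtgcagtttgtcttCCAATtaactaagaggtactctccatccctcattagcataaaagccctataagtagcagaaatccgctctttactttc

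CCAAT, the binding motif of NF-Y, stood in all 3 windows, and TATAAA in that of H2AC11. The table held a promoter, 250 bases before to 50 after the start, for 11916 of the tested genes (69.5%), matched by symbol. Of these, 36.5% held CCAAT and 5.91% held TATAAA on either strand. Among the 32 core histone promoters of genes called higher the shares were 71.9% and 68.8%, and over all 40 tested core histone promoters 77.5% and 70.0%. CCAAT was also frequent in other lists, at 72.7% of 44 promoters of the mitosis list, of which no gene was called, and 61.0% of 41 of the replication list. TATAAA was held by 4.55% and 4.88% of these. Over all calls the shares lay closer to those of the tested genes. CCAAT stood in 42.5% of the promoters of genes called higher and 28.7% of those called lower, TATAAA in 10.5% and 7.02%, and the Sp1 motif GGGCGG in 75.8% and 60.4% against 69.5% of all. The ETS motif CCGGAAG was held by 8.96% and 7.16% against 18%, the E box CACGTG by 8.54% and 9.16% against 9.80%, and the AP-1 motif TGACTCA by 2.56% and 5.37% against 3.12%. For the motif TTTGAA of cell cycle genes the shares were 7.90%, 11.5% and 9.72%, for TGACGTCA 3.20%, 1.29% and 3.21%, and for the E2F motifs TTTCCCGC or TTTGGCGC 2.56%, 2.51% and 3.56%. These shares describe letters in a window and were not tested.

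Interferon-stimulated genes had the largest share of falls among the 70 lists and families. They encode antiviral sensors and effectors, and cancer cells can express them without added interferon. Of 49 listed, 44 were tested, 27 fell (61.4%, against 11.2% of all tested) and 2 rose, with a median log2 fold change of −1.90, and 30 fell in replicates 1 and 2 alone. OAS1, which senses double-stranded RNA, had 13.2, 10.3 and 10.8 CPM in DMSO replicates 1, 2 and 3 and 0.393, 0.532 and 0.560 CPM in those treated with i-BET858 (edgeR, log2 fold change −4.53 ± 0.271 SE, adjusted p = 1.12e-06). The ADP-ribosyltransferase PARP9 had 135, 124 and 129.5 CPM with DMSO and 25.1, 22.5 and 26.8 CPM with i-BET858 (edgeR, log2 fold change −2.39 ± 0.103 SE, adjusted p = 3.02e-07). Its partner, the ubiquitin ligase DTX3L, had 231, 223 and 210.1 CPM with DMSO and 52.8, 44 and 60.2 CPM with i-BET858. In each of the 3 genes the controls stood above all treated libraries. The pair is transcribed head to head and overlaps on opposite strands, so that part of the reads may be shared. The guanylate-binding protein GBP1 went from 28.6 ± 3.26 to 2.07 ± 0.869 CPM, IFIT3 from 9.70 ± 0.748 to 1.40 ± 0.159 CPM, MX1 from 9.77 ± 2.15 to 1.82 ± 0.583 CPM, BST2 (tetherin) from 2.97 ± 0.392 to 0.396 ± 0.243 CPM and TRIM22 from 5.33 ± 4.25 to 0.123 ± 0.0884 CPM. In all of these the groups did not overlap, and the spread of TRIM22 with DMSO was nearly as large as its mean. The summed level of the list was 1294, 1218 and 1299 CPM with DMSO and 685, 653 and 728 CPM with i-BET858. Not all members went down. IRF7, a regulator of interferon genes, rose from 11.7 ± 0.914 to 54.3 ± 4.54 CPM and IFI6 from 5.97 ± 0.741 to 14.8 ± 1.05 CPM. STAT2, which carries the interferon signal, went from 52.6 ± 9.42 to 83.1 ± 13 CPM, with a log2 fold change of 0.66 ± 0.156 (adjusted p = 0.0059, under 2-fold). ISG15 was not called (34.8 ± 2.43 to 24.9 ± 3.06 CPM).

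The 200 bases before the start sites of 3 interferon-stimulated genes are shown for the interferon response motif. They are the 3 with the smallest adjusted p among the genes of the list that fell and hold a match to GAAANNGAA on either strand within these bases, a motif chosen after the falls were seen. The match is in capitals. The windows, from RefSeq (GRCh38.p14), are chr3:122680639-122680838 on the plus strand, chr1:89065209-89065408 on the minus strand and chr10:89327797-89327996 on the plus strand.
PARP14: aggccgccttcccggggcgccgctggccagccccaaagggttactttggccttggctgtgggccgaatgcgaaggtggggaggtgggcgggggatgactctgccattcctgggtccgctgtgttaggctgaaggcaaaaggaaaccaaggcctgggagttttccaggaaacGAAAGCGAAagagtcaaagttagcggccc
GBP1: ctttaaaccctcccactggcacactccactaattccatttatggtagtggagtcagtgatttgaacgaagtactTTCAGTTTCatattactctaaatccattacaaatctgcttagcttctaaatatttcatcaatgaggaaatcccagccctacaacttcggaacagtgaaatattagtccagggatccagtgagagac
IFIT3: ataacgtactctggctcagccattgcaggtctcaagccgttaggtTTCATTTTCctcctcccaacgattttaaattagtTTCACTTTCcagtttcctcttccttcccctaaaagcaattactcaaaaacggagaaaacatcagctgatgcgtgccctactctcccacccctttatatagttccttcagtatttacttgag

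PARP14, a further ADP-ribosyltransferase, went from 114 ± 25.2 to 29.3 ± 3.79 CPM. In the 300-base windows, GAAANNGAA was found for 15 of 22 listed genes that fell (68.2%) and for 67.6% of all 34 listed genes with a promoter in the table, against 6.33% of the tested genes. Over all transcripts called lower the share was 7.66%, and over those called higher 5.55%. The motif was also in 37.5% of the 40 tested core histone promoters, 31.2% of those of genes called higher, and in 17.5% of 63 promoters of ribosomal protein genes, of which none was called.

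Antigen presentation moved in both directions. The immunoproteasome subunits PSMB8, PSMB9 and PSMB10, which replace the constitutive ones to cut peptides for MHC class I, fell from 24.6 ± 5.52 to 2.90 ± 0.507 CPM, from 4.88 ± 0.621 to 1.46 ± 0.296 CPM and from 11.4 ± 3.81 to 1.96 ± 0.960 CPM. The trimming peptidases ERAP1 and ERAP2 fell too (log2 fold changes −1.30 ± 0.282 and −1.75 ± 0.489), though ERAP2 was not called without DMSO replicate 2 (log2 fold change −1.55). B2M, the light chain of MHC class I, rose from 329 ± 34.6 to 705 ± 51.7 CPM (edgeR, log2 fold change 1.10 ± 0.116 SE, adjusted p = 3.36e-05). The list had 16 members tested, 5 called lower and 1 higher (2 without i-BET858 replicate 1). The constitutive PSMB5 was not called (from 145 ± 19.1 to 123 ± 8.27 CPM). Of 20 NF-kB targets and chemokines tested, 9 fell (45%) and 10 in replicates 1 and 2 alone. The subunit NFKB1 fell from 52.8 ± 2.38 to 20.2 ± 2.5 CPM and RELB from 20.4 ± 2.48 to 5.06 ± 0.327 CPM. LIF, a cytokine of the IL6 family, had 21.7, 24.3 and 12.5 CPM with DMSO and 1.55, 1.46 and 0.236 CPM with i-BET858 (edgeR, log2 fold change −4.15 ± 0.509 SE, adjusted p = 9.72e-05), so that the highest treated library held less than the lowest control. The neutrophil attractant CXCL8 went from 5.07 ± 0.173 to 0.866 ± 0.740 CPM, and the TNF-induced TNFAIP2 from 259 ± 8.85 to 118 ± 8.37 CPM. Among 34 tested interleukin and interleukin receptor genes, 17 fell (50%) and the others were not called, with a median log2 fold change of −1.2. The decoy receptor IL1R2 had 15.3, 14.3 and 13.5 CPM with DMSO and 1.29, 1.51 and 0.913 CPM with i-BET858, and the receptor IL27RA 10.9, 10.8 and 7.70 CPM with DMSO and 1.59, 1.54 and 0.825 CPM with i-BET858. IL12A, a subunit of interleukin 12, had 4.33, 3.96 and 3.28 CPM with DMSO and 0.153, 0.168 and 0.324 CPM with i-BET858. All 3 were lower in every treated library. In the fit with at least 10 counts in every library, fewer members were tested and 9 were called lower.

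**Figure D3:**
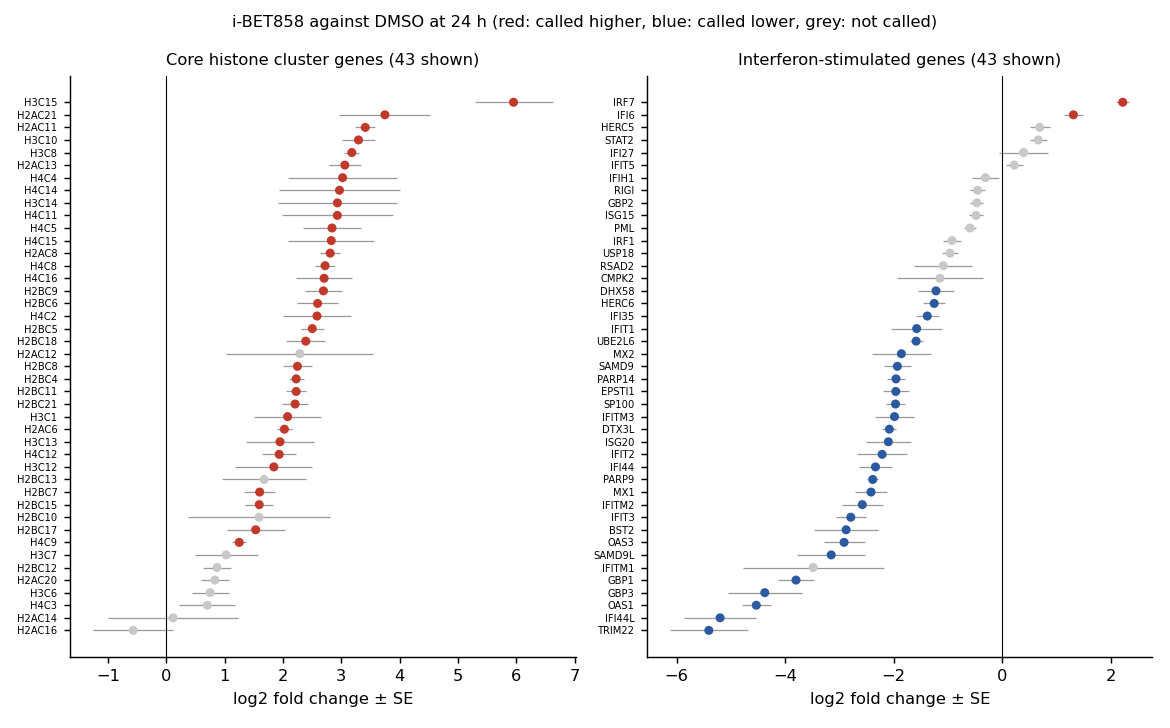
Log2 fold change ± SE of each tested core histone gene (left, 43) and 43 of the 44 tested interferon-stimulated genes (right) with i-BET858 against DMSO at 24 h, sorted by size; red was called higher, blue lower, grey not called. 33 of the histone genes were called higher, and 27 of the interferon-stimulated genes lower, with IRF7 and IFI6 at the other end.

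Genes of mitosis and replication were mostly not called at 24 h. No gene of 53 for mitosis and G2/M was called by edgeR or, with 0 calls, by DESeq2. Under an unadjusted p of 0.05, 21 lay higher and 6 lower, against 24% higher and 25% lower over all tested transcripts. With the adjusted p alone 19 lay higher (35.8%) and 4 lower (7.55%), all under 2-fold, and over all tested transcripts these shares were 20.5% higher and 21.3% lower. The median log2 fold change of the mitosis genes was 0.24, and their summed level was 6766, 6898 and 6605 CPM with DMSO and 8014, 8262 and 8059 CPM with i-BET858, without overlap and 20.1% higher in the mean, beside the 6.19% of all tested transcripts. Of 48 replication genes, 3 fell (6.25%, against 11.2% of all tested): POLE2, a subunit of the leading strand polymerase, from 14.8 ± 0.911 to 4.21 ± 0.264 CPM, the fork protection factor TIPIN from 18.5 ± 1.71 to 7.5 ± 1.62 CPM, and MCM5, a subunit of the replicative helicase, from 104 ± 3.86 to 48.8 ± 9.12 CPM. The call of MCM5 was lost without i-BET858 replicate 3 (−0.94) and in replicates 1 and 2 alone (−0.94). By the adjusted p alone, 18 were lower and 5 higher. TOPBP1, which activates the checkpoint kinase ATR, went from 162 ± 39.8 to 124 ± 20.7 CPM and was not called (log2 fold change −0.39 ± 0.188, adjusted p = 0.124). Of 41 genes of homologous recombination and the Fanconi pathway, 2 fell and 2 rose (4.88% each, against 11.2% and 7.65% of all tested). The recombination genes RAD51D and RAD51B fell, from 5.5 ± 1.37 to 1.54 ± 0.314 CPM and from 5.19 ± 0.471 to 2.29 ± 0.148 CPM. The nuclease scaffold SLX4 rose from 11.9 ± 1.30 to 26.6 ± 3.66 CPM, with a log2 fold change of 0.98 and no call in replicates 1 and 2 alone. FANCB, a subunit of the Fanconi core complex, rose from 3.09 ± 0.0656 to 6.48 ± 1.42 CPM, and its call was lost without i-BET858 replicate 3 (0.94).

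Growth machinery changed mostly below 2-fold. None of 78 ribosomal protein genes was called by edgeR and 0 by DESeq2. In that list 1 was called lower without DMSO replicate 3 or without i-BET858 replicate 2. Under an unadjusted p of 0.05, 17 were lower and 2 higher, beside the 25% and 24% over all tested transcripts. By the adjusted p alone the shares were 12.8% lower and 2.56% higher, both under the 21.3% and 20.5% of all tested. Their summed level was 61660, 63610 and 94970 CPM with DMSO and 57250, 63950 and 77480 CPM with i-BET858. Of 50 ribosome biogenesis genes, 4 fell, BRIX1, RRS1, NOP16 and WDR12, with NOP16 from 39.5 ± 0.911 to 19.1 ± 1.2 CPM, RRS1 from 57.7 ± 3.81 to 27.6 ± 0.722 CPM and BRIX1 from 62.8 ± 8.59 to 26.1 ± 6.13 CPM, and 25 were lower against 1 higher by the adjusted p alone. The call of WDR12 was lost without DMSO replicate 3 (−0.97) and without i-BET858 replicate 3 (−0.95). Mitochondrial ribosomal proteins gave 6 falls among 76 and 38 lower against 2 higher by the adjusted p alone, with MRPL11 from 119.9 ± 7.15 to 36.8 ± 6.22 CPM. Of 62 nuclear genes of oxidative phosphorylation, 2 fell (3.23%, against 11.2% of all tested). ATP5MC1, a subunit of the ATP synthase ring, fell from 156 ± 48.1 to 60.3 ± 6.57 CPM and NDUFA9 from 5.46 ± 0.791 to 2.40 ± 0.590 CPM. The 13 genes of the mitochondrial genome had a median log2 fold change of 0.31, with 3 higher by the adjusted p alone (23.1%, near the 20.5% of all tested) and none called, by edgeR or DESeq2 (0). At an unadjusted p under 0.05, 5 of them were higher, against 24% of all tested transcripts. The leucyl-tRNA synthetase LARS1 was the one of 20 that fell (5.0%), from 184 ± 6.88 to 85.4 ± 7.18 CPM. Proteasome subunits had 7 higher and 3 lower of 31 at an unadjusted p under 0.05, where the shares over all tested transcripts were 24% and 25%, and 0 calls by edgeR and 0 by DESeq2. By the adjusted p alone 19.4% of them were higher and 9.68% lower, against 20.5% and 21.3% of all tested.

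The MYC network, which is known to drive many growth genes, was called at 3 of 12 genes, 2 higher (16.7%, against 7.65% of all tested) and 1 lower (8.33%, against 11.2%). MYC had 23.7, 24.0 and 39.4 CPM in DMSO replicates 1, 2 and 3 and 15.5, 14.1 and 19.7 CPM in those treated with i-BET858 and was not called (log2 fold change −0.82 ± 0.234, adjusted p = 0.0157, under 2-fold). MYCN fell from 1.87 ± 0.445 to 0.171 ± 0.0246 CPM (edgeR, log2 fold change −3.42 ± 0.529 SE, adjusted p = 0.000437), and MYCL was not called (38.4 ± 4.01 to 30.6 ± 5.51 CPM). The antagonists MXD1 and MXD4, which pair with MAX and repress its targets, rose from 9.61 ± 1.43 to 30.9 ± 2.12 CPM and from 61.8 ± 3.99 to 167 ± 14.4 CPM. MAX itself went from 40.0 ± 1.11 to 50.1 ± 1.06 CPM, MGA from 55.3 ± 12.5 to 84.8 ± 12.3 CPM and MNT from 19.7 ± 0.885 to 22.5 ± 0.651 CPM, none of them called. MXD3, MXI1, MLX and MLXIP were not called either, with log2 fold changes of 0.76, −0.17, −0.37 and 0.50.

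Of 15 BCL2 family genes, which set the threshold of mitochondrial apoptosis, 3 fell and 1 rose. BID, a death agonist that links receptors to mitochondria, had 128, 143 and 197 CPM with DMSO and 30.8, 31.9 and 39.5 CPM with i-BET858 (edgeR, log2 fold change −2.19 ± 0.170 SE, adjusted p = 4.74e-06). BCL2 fell from 2.84 ± 1.44 to 0.316 ± 0.0680 CPM and the effector BOK from 18.3 ± 1.5 to 6.23 ± 1.02 CPM. BCL2L11 (BIM), a killer protein of the BH3-only group, rose from 34.0 ± 2.10 to 76.9 ± 3.57 CPM. The survival genes BCL2L1 (BCL-XL) and MCL1 went from 189 ± 11.1 to 291 ± 21.8 CPM and from 407 ± 27.3 to 666 ± 56.8 CPM, with adjusted p = 0.000344 and 0.000148 and less than 2-fold. The effectors BAX and BAK1 went from 30.1 to 36.5 CPM and from 52.2 to 66.5 CPM, and of the BH3-only genes BBC3 (PUMA) went from 4.98 to 5.16 CPM, BMF from 39.9 to 63.6 CPM and PMAIP1 (NOXA) from 12.7 to 17.9 CPM, none of them called. Among 28 p53 targets, 4 rose and 4 fell (14.3% each, against 7.65% and 11.2% of all tested), so that the calls had no common direction. Of these targets, 2 fell without DMSO replicate 1 or without i-BET858 replicate 1. Beside CDKN1A, the ribonucleotide reductase subunit RRM2B rose from 45.4 ± 3.04 to 137 ± 16.8 CPM, TP53I3 from 15.3 ± 1.62 to 41.2 ± 2.97 CPM and SESN1 from 7.85 ± 0.102 to 16.3 ± 0.993 CPM (not called without i-BET858 replicate 2, where its log2 fold change was 1.00, just under the threshold), and the death receptor FAS fell from 3.44 ± 0.560 to 0.447 ± 0.209 CPM.

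Of 24 AP-1 and immediate early genes, transcription factors that cells induce within minutes of a stimulus, 7 were higher at 24 h (29.2%) and the others were not called. FOS rose from 7.71 ± 1.09 to 26.4 ± 5.80 CPM, JUND from 110.1 ± 20.8 to 276 ± 35.9 CPM, IER5 from 41.8 ± 7.15 to 107 ± 18.2 CPM, ATF3 from 11.3 ± 3.22 to 30.6 ± 7.43 CPM, EGR1 from 34.0 ± 5.10 to 73.6 ± 19.4 CPM, KLF2 from 1.43 ± 0.213 to 10.3 ± 4.22 CPM and NR4A3 from 0.325 ± 0.215 to 2.72 ± 0.138 CPM. EGR1 was not called without i-BET858 replicate 3 (log2 fold change 0.91). Of 18 feedback genes of the ERK pathway, 4 fell (22.2%) and 1 rose (5.56%), against 11.2% and 7.65% of all tested. ETV4 fell from 53.7 ± 6.39 to 11.9 ± 1.34 CPM, SPRY1, an inhibitor of receptor signalling, from 20.8 ± 5.11 to 6.77 ± 0.750 CPM and SPRED3 from 9.90 ± 1.11 to 1.76 ± 0.732 CPM, while the related factor ETV5 rose from 10.3 ± 2.03 to 35.3 ± 2.69 CPM. MAP3K3, a kinase upstream of several MAPK pathways, had 31.2, 26.7 and 30.3 CPM with DMSO and 115, 107 and 129.8 CPM with i-BET858 (edgeR, log2 fold change 2.0 ± 0.120 SE, adjusted p = 1.12e-06). Among 17 ERBB receptors and ligands, NRG1, the ligand of ERBB3 and ERBB4, had 12.9, 17.3 and 15.8 CPM with DMSO and 2.09, 2.16 and 2.44 CPM with i-BET858 (edgeR, log2 fold change −2.78 ± 0.258 SE, adjusted p = 1.5e-05) and betacellulin (BTC) fell from 38.8 ± 5.82 to 11.9 ± 1.28 CPM. The EGFR ligands AREG and HBEGF rose from 2.67 ± 0.808 to 6.10 ± 0.519 CPM and from 5.35 ± 2.13 to 12.0 ± 2.43 CPM, and both calls were lost without DMSO replicate 3 (0.99 and 0.90).

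In developmental signalling most genes were not called. Of 34 TGF-beta and BMP genes, 7 fell (20.6%, against 11.2% of all tested) and 4 rose (11.8%, against 7.65%). The BMP antagonist NOG had 63.5, 63.0 and 68.6 CPM with DMSO and 5.5, 6.81 and 6.57 CPM with i-BET858 (edgeR, log2 fold change −3.37 ± 0.161 SE, adjusted p = 5.33e-07), BMP7 lost most in absolute terms, and SMAD3, which carries the TGF-beta signal, fell from 81 ± 7.57 to 25.0 ± 2.40 CPM. The targets ID1, ID2 and ID4, inhibitors of basic helix-loop-helix factors, rose from 512 ± 45.1 to 1128 ± 193 CPM, from 122 ± 17.2 to 406 ± 85.4 CPM and from 85.4 ± 31.3 to 262 ± 51.9 CPM. SMAD4 was not called (48.2 ± 7.10 to 60.7 ± 2.69 CPM). Of 35 WNT genes, 8 fell (22.9%) and 5 rose (14.3%, and 3 when scaled to library size). WNT5A, a ligand of noncanonical signalling, had 53.3, 54.5 and 80.0 CPM with DMSO and 8.48, 8.97 and 14.3 CPM with i-BET858 (edgeR, log2 fold change −2.57 ± 0.276 SE, adjusted p = 3.99e-05), the receptor FZD2 fell from 35.6 ± 2.36 to 11.7 ± 0.149 CPM and LGR5, a receptor of R-spondins, from 12.7 ± 2.18 to 2.19 ± 0.707 CPM. WNT9A rose from 4.67 ± 2.13 to 17.7 ± 0.787 CPM and the receptor FZD5 from 10.1 ± 1.16 to 23.7 ± 3.80 CPM. Of 21 Notch genes, the ligand DLL4 rose from 0.386 ± 0.176 to 8.41 ± 0.690 CPM, the glycosyltransferase LFNG from 61.3 ± 16.9 to 193 ± 26.6 CPM and the target NRARP from 26.7 ± 5.40 to 75.1 ± 5.96 CPM, while NOTCH3, a receptor known to be amplified in serous carcinoma, fell from 289.6 ± 16.1 to 126 ± 12.3 CPM and the coactivator MAML2 from 8.57 ± 0.590 to 3.60 ± 0.699 CPM. In the list of YAP, TAZ and TEAD, 2 of 23 fell, the receptor kinase AXL (1.33 to 0.225 CPM) and TEAD2 (62.2 to 29.3 CPM, a call lost without DMSO replicate 3 with a log2 fold change of −0.97).

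Antioxidant and lysosomal genes were called higher more than lower. Of 28 tested NRF2 and antioxidant genes, 7 rose (25.0%, and 7 in replicates 1 and 2 alone, but 4 without DMSO replicate 2 and 4 when scaled to library size). TXNRD1 had 459, 504 and 541 CPM with DMSO and 1421, 1305 and 1202 CPM with i-BET858 (edgeR, log2 fold change 1.38 ± 0.120 SE, adjusted p = 9.55e-06). GCLC, which makes the first step to glutathione, rose from 40.7 ± 5.18 to 110.5 ± 6.52 CPM and OSGIN1 from 6.54 ± 1.17 to 20.8 ± 4.18 CPM. Of 51 autophagy and lysosome genes, 8 rose (15.7%) and 3 fell, and 26 were higher against 7 lower by the adjusted p alone. The count of rises went to 5 without DMSO replicate 2 and 3 when scaled to library size, and that of falls to 1 without i-BET858 replicate 1 or 2. MAP1LC3B, the protein that coats autophagosomes, had 41.1, 40.2 and 43.5 CPM with DMSO and 146, 159.5 and 152 CPM with i-BET858 (edgeR, log2 fold change 1.87 ± 0.0922 SE, adjusted p = 5.66e-07), the sialidase NEU1 rose from 50.4 ± 6.22 to 172 ± 16.6 CPM and the LC3 protease ATG4A from 16 ± 0.559 to 38.6 ± 4.15 CPM. TFEB, a transcription factor of lysosomal genes, fell from 2.90 ± 0.399 to 0.434 ± 0.180 CPM. Of 34 genes of the unfolded protein and ATF4 stress list, 4 rose (11.8%) and 3 fell (8.82%), against 7.65% and 11.2% of all tested. XBP1, the factor spliced by IRE1, had 306, 293 and 395 CPM with DMSO and 80.5, 79.4 and 81.3 CPM with i-BET858 (edgeR, log2 fold change −2.04 ± 0.124 SE, adjusted p = 1.13e-06), while ERN1, which encodes IRE1 itself, rose from 8.76 ± 1.04 to 39.2 ± 6.43 CPM. The chaperone cofactor SDF2L1 and the pseudokinase TRIB3 fell from 58.2 ± 9.98 to 25.6 ± 2.14 CPM and from 42.9 ± 11 to 16.3 ± 3.63 CPM, and PPP1R15A (GADD34), which ends the translational arrest, rose from 30.6 ± 4.18 to 66.9 ± 7.83 CPM. In lipid synthesis the elongase ELOVL6 fell from 72.4 ± 8.14 to 17.2 ± 3.43 CPM and the exporter ABCA1 from 8.23 ± 2.77 to 3.45 ± 0.878 CPM, while the cholesterol enzyme LSS rose from 76.2 ± 12.5 to 172 ± 23.3 CPM and the exporter ABCG1 from 1.83 ± 0.521 to 6.74 ± 0.0878 CPM, within 38 genes tested of which 2 rose and 3 fell.

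Most markers of the lineage were not called. Of 20 serous lineage genes, 3 fell: MUC1 had 26.9, 26.7 and 38.5 CPM with DMSO and 4.32, 3.95 and 10.1 CPM with i-BET858, the transcription factor MECOM fell from 50.8 ± 4.03 to 21.2 ± 4.71 CPM, and KRT18 fell as given above. By the adjusted p alone 7 of the list were lower and 4 higher, and its summed level went from 15110, 14600 and 13790 CPM with DMSO to 11680, 12030 and 11700 CPM with i-BET858, without overlap. KRT8, the partner of KRT18 in the same filament, was not called (5804 ± 421 to 4144 ± 208 CPM, log2 fold change −0.49 ± 0.0844), nor were KRT7 (736 ± 88.7 to 419.5 ± 56.0 CPM) and KRT19 (1259 ± 139 to 1109 ± 120 CPM). The tight junction genes CLDN1 and CLDN16 fell from 129.9 ± 19.8 to 33.0 ± 1.68 CPM and from 56.5 ± 17 to 5.63 ± 1.62 CPM, and CLDN3 and CLDN4 were not called (316 to 238 CPM and 269 to 363 CPM). KRT6A, a keratin of stressed epithelium with near-identical relatives, rose from 7.46 ± 2.56 to 28.4 ± 6.14 CPM. E-cadherin (CDH1) rose from 230.5 ± 12.1 to 486 ± 82.5 CPM, a call lost without i-BET858 replicate 3 (log2 fold change 0.97). Of 44 collagens, laminins and integrins, 11 fell (25.0%), with 14 in replicates 1 and 2 alone. This count was 5 without i-BET858 replicate 2 and 7 without DMSO replicate 1 or i-BET858 replicate 1. ITGB6, a subunit of the integrin that activates latent TGF-beta, fell from 6.13 ± 2.27 to 0.704 ± 0.0576 CPM, COL9A2 from 24.9 ± 3.85 to 7.64 ± 0.615 CPM and LAMC3 from 9.23 ± 0.864 to 2.88 ± 0.566 CPM. ITGA6, a laminin receptor, rose from 51.3 ± 4.34 to 136 ± 12.5 CPM.

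HOX genes, which give cells their place along the body axis and are known to depend on active enhancers, fell at 9 of 23 tested (39.1%), and 12 fell in replicates 1 and 2 alone. HOXB7 had 19.6, 21.7 and 16.8 CPM with DMSO and 3.90, 3.67 and 4.30 CPM with i-BET858 (edgeR, log2 fold change −2.29 ± 0.210 SE, adjusted p = 1.4e-05), HOXD8 fell from 7.38 ± 0.510 to 1.83 ± 0.242 CPM and HOXB13 from 13.4 ± 0.999 to 4.76 ± 0.699 CPM. HOXA5 was called higher. It went from 57.1 ± 4.08 to 115 ± 16.2 CPM and lay at the threshold, with no call without DMSO replicate 2 (log2 fold change 0.96) or without i-BET858 replicate 3 (0.90) and a log2 fold change of 1.00, just under the threshold, without DMSO replicate 1. When scaled to library size it was not called (0.92). SOX2, a factor of stem cells, rose from 108 ± 17.1 to 234 ± 14.2 CPM and SOX11 from 138 ± 14.7 to 300.2 ± 42.3 CPM. SOX8 had no count in any DMSO library and 1.70, 1.40 and 0.766 CPM with i-BET858. With the replicate number as a block, 5 of the 15 SOX genes were called higher in place of 3, and as many without DMSO replicate 3. The factor ZHX2, a zinc finger homeobox protein, had 177, 168 and 140.3 CPM with DMSO and 21.6, 18.4 and 12.1 CPM with i-BET858 (edgeR, log2 fold change −3.22 ± 0.194 SE, adjusted p = 1.13e-06), and the forkhead factor FOXJ1, known for driving motile cilia, fell from 8.58 ± 1.48 to 0.984 ± 0.583 CPM.

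Many genes better known from neurons rose. Of 42 synaptic vesicle and neuronal secretory genes tested, 14 rose (33.3%, against 7.65%) and 3 fell (16 and 7 in replicates 1 and 2 alone, and 1 fell without replicate 1 or 2 of either group). The priming factor UNC13B had 38.1, 35.4 and 35.7 CPM with DMSO and 141, 126 and 132 CPM with i-BET858 (edgeR, log2 fold change 1.87 ± 0.0986 SE, adjusted p = 6.53e-07), without overlap of the groups. The granule protein CHGA rose from 2.47 ± 0.168 to 24.1 ± 1.41 CPM, while RIMS1, a scaffold of the active zone, fell from 12.3 ± 1.02 to 2.29 ± 0.0476 CPM. Of the list, 8 members did not pass the filter, and with at least 10 counts in every library 9 were called higher. Tubulins and microtubule proteins rose at 6 of 24 (25.0%) and fell at 1. The microtubule stabilisers MAP1A and MAP1B, typical of axons, rose from 15.3 ± 0.553 to 58.3 ± 5.32 CPM and from 4.94 ± 1.04 to 28.7 ± 1.89 CPM, and TUBA1A, one of several near-identical tubulin genes, from 179.8 ± 44 to 555 ± 54.5 CPM. TUBA4A fell from 206 ± 55.9 to 82.2 ± 18.3 CPM. The motors KIF5C and KIF3A rose from 20.4 ± 4.83 to 70.4 ± 7.69 CPM and from 26.9 ± 2.84 to 70.4 ± 6.29 CPM. Potassium channel genes went down, at 20 of 57 (35.1%), with 3 higher and a median log2 fold change of −1.0. KCNH2 (hERG) had 13.2, 13.4 and 13.9 CPM with DMSO and 1.46, 1.29 and 1.71 CPM with i-BET858 (edgeR, log2 fold change −3.18 ± 0.209 SE, adjusted p = 1.66e-06), KCNQ3 fell from 5.72 ± 0.792 to 0.421 ± 0.110 CPM and KCNH3 from 30.3 ± 6.59 to 7.30 ± 1.30 CPM. The summed level of the family was 328, 319 and 286 CPM with DMSO and 168, 161 and 161 CPM with i-BET858.

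Among transporters, 9 of 30 ABC genes rose (30%) and 4 fell. ABCA5 had 5.6, 4.13 and 3.45 CPM with DMSO and 42.5, 33.0 and 26.2 CPM with i-BET858, ABCA7 rose from 9.41 ± 1.84 to 32.8 ± 3.98 CPM and ABCB1, the multidrug pump MDR1, from 0.107 ± 0.109 to 2.71 ± 0.953 CPM. ABCC4 fell from 13.4 ± 3.22 to 5.42 ± 2.11 CPM and ABCC3 from 4.64 ± 0.559 to 1.5 ± 0.308 CPM. Solute carriers, with 256 genes tested, had 18 rises (7.03%) and 40 falls (15.6%). SLC2A13, a myo-inositol transporter, rose from 4.01 ± 0.117 to 39.8 ± 3.56 CPM, and SLC2A9, a urate transporter, fell from 32.7 ± 1.66 to 4.76 ± 0.393 CPM. Of 454 ZNF zinc finger genes, 23 were higher (5.07%) and 30 lower (6.61%), both shares below those of all tested transcripts (7.65% and 11.2%). ZNF445, which maintains genomic imprints, rose from 26.9 ± 0.934 to 63.2 ± 3.60 CPM and ZNF467 fell from 40.2 ± 2.70 to 10.4 ± 1.16 CPM. Of 27 tested enzymes that write and erase acetyl groups, 2 rose and 2 fell (7.41% each, against 7.65% and 11.2% of all tested). SIRT1, a deacetylase, had 48.0, 43.5 and 41.4 CPM with DMSO and 147, 139 and 163 CPM with i-BET858. Its log2 fold change was 1.76 ± 0.104 SE (edgeR, adjusted p = 1.1e-06). KAT2A (GCN5), an acetyltransferase, fell from 52.2 ± 4.78 to 20.3 ± 1.45 CPM. Other deacetylases went both ways, each close to the threshold. HDAC5 rose (log2 fold change 1.07 ± 0.108) and HDAC7 fell (−1.02 ± 0.113). Of 32 Mediator subunits 1 fell, MED24, from 50.3 ± 2.99 to 21.7 ± 2.09 CPM. Of 24 SWI/SNF genes, BICRAL fell from 15.9 ± 1.22 to 5.56 ± 0.377 CPM and DPF3, near the limit of detection with DMSO, rose from 0.0852 ± 0.0944 to 1.77 ± 0.384 CPM. Long noncoding RNAs were called at 137 higher and 184 lower of 1957 tested, 7.0% and 9.40%, both under the 7.65% and 11.2% of all tested transcripts. NUDT19-DT had 1.46, 1.38 and 1.41 CPM with DMSO and 12.4, 15.1 and 22.4 CPM with i-BET858, LINC02672 29.8, 30.8 and 23.3 CPM with DMSO and 2.25, 2.30 and 2.33 CPM with i-BET858, and LINC01127 28.3, 30.4 and 17.3 CPM with DMSO and 2.44, 2.33 and 2.98 CPM with i-BET858, each without overlap of the groups. DIDO1 (from 140.1 ± 15.9 to 111 ± 14.7 CPM) and E4F1 (from 44.1 ± 7.51 to 51.3 ± 6.69 CPM), transcriptional regulators, were not called.

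**Figure D4:**
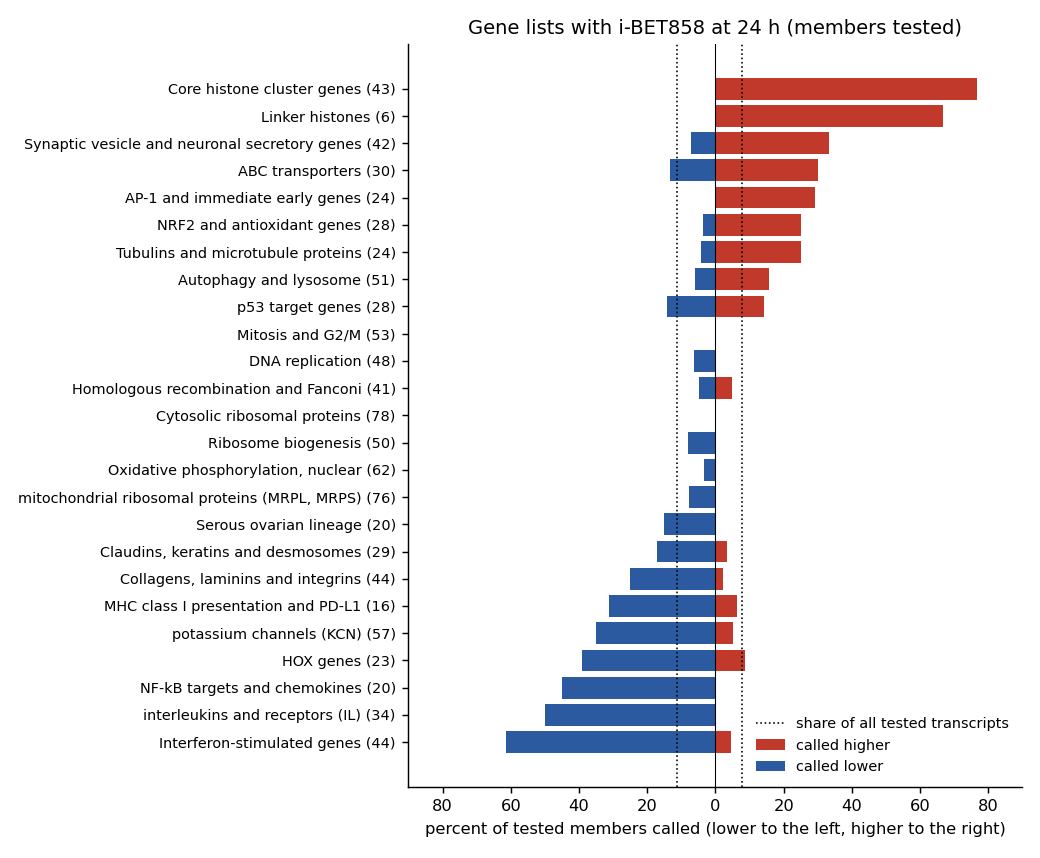
Percent of the tested members of 25 gene lists and families called higher (red, to the right) or lower (blue, to the left) with i-BET858 at 24 h, with the number tested in brackets; dotted lines mark the share of all tested transcripts, 7.65% higher and 11.2% lower. Core histone genes reached 76.7% higher and interferon-stimulated genes 61.4% lower, and mitosis and ribosomal protein genes had no bar.

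How much of this response was late was asked with the drug-by-time interaction, which sets the effect at 24 h against that at 4 h, each relative to the DMSO libraries of its own time. The effect changed at 2738 of 18154 transcripts (15.1%), upwards at 1247 (6.87%) and downwards at 1491 (8.21%), with the same thresholds in edgeR. Of the 24 h calls, 3181 were tested at 4 h too. At both times in the same direction, 942 were called, 29.6% of the 24 h calls and 40.1% of the 4 h calls, and 10 in opposite directions. Transcripts lower at 24 h had a called change of effect downwards in 1009 of 1922 cases, and transcripts higher at 24 h one upwards in 256 of 1312.

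Interferon-stimulated genes fell late. At 4 h, 4 of 44 were called lower and 3 higher, with a median log2 fold change of −0.05. At 24 h, 27 were lower and 2 higher, with a median of −1.90, and the effect moved down in 26 of the 44 (background 8.21%). OAS1 had a log2 fold change of −0.31 at 4 h and a change of effect of −4.18 (adjusted p = 1.23e-06 in edgeR). At 4 h, 7.08% of all tested transcripts were called higher and 7% lower. Potassium channels (3 lower at 4 h, 20 at 24 h, change of effect downwards in 20 of 54), interleukins and their receptors (3, 17 and 11 of 34) and collagens, laminins and integrins (1, 11 and 12 of 43) had the same order of counts. Called higher were 9 potassium channels at 4 h and 3 at 24 h, so that this family was not silent early. For interleukins and their receptors these counts were 2 and 0, and for collagens, laminins and integrins 0 and 1. VTCN1 (−0.25 at 4 h, −4.82 at 24 h), ERP27 (−0.05 and −5.03), KRT18 (0.28 and −1.36) and BID (−0.28 and −2.19) were also late falls, each with a called change of effect. The core histone genes rose early. Of 39 tested at both times, 29 were higher at 4 h and 31 at 24 h, and the effect grew in 5, among them H2AC11 (change of effect 1.12, adjusted p = 0.0101) and H3C8 (1.77, adjusted p = 0.00024). The rises of HEXIM1 (1.87 at 4 h, 1.76 at 24 h), CDKN1A (4.27 and 3.60), SERPINI1 (4.09 and 4.12) and NGFR (4.89 and 5.59) were present at 4 h, and a change of their effect was not called. Of the 4 response markers, 3 were called higher and 1 lower at 4 h, against 3 higher and 0 lower at 24 h, and the effect moved up in 1. The late rises included MAP1B (0.27 and 2.54), UNC13B (0.35 and 1.87), TXNRD1 (−0.07 and 1.38), SOX2 (−0.36 and 1.12) and KRT6A (0.01 and 1.93), each with a called change of effect. Other groups had fewer calls at 24 h than at 4 h. Of 450 ZNF genes, 96 were lower at 4 h and 30 at 24 h, and the effect moved up in 79 (background 6.87%) and down in 7. Mediator subunits went from 7 lower to 1, with 9 of 32 moving up. Ubiquitin-specific proteases had as many calls at both times, with 5 lower and 0 higher at 4 h, 1 lower (2 without DMSO replicate 1 or 2) and 4 higher at 24 h, and the effect moving up in 9 of 47. BCL2L1 had been lower at 4 h (−1.26) and lay above the control at 24 h (0.62), a change of effect of 1.93 (adjusted p = 1.26e-07). DIDO1 (−1.55 and −0.34) and MGA (−1.40 and 0.62) were lower at 4 h and not called at 24 h, each with a called change of effect. Of the immediate early genes, 11 of 24 were higher at 4 h and 7 at 24 h, with the effect moving down in 4. The unfolded protein response list had 8 higher at 4 h and 4 at 24 h, and the effect moved down in 8 of 34.

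**Figure D5:**
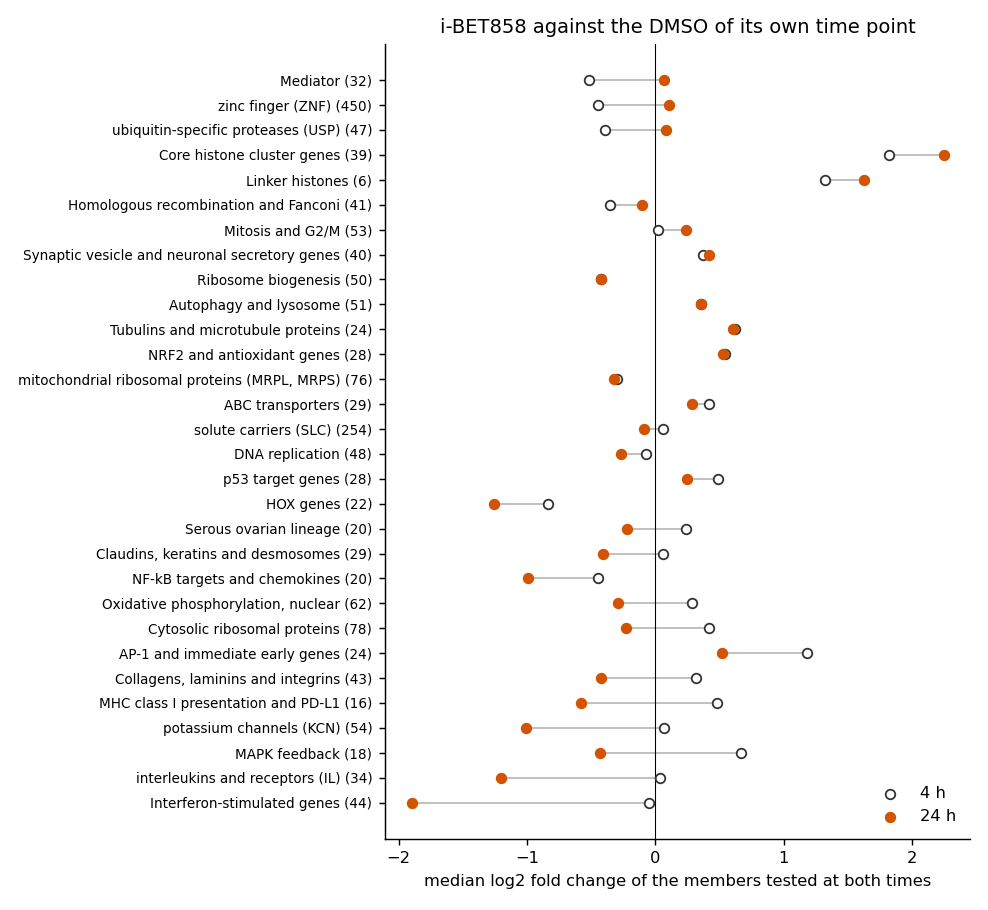
Median log2 fold change of i-BET858 against the DMSO libraries of the same time, over the members of 30 lists and families tested at both times (number in brackets), at 4 h (open points) and 24 h (filled points), sorted by the difference. Interferon-stimulated genes went from −0.05 to −1.90 and ZNF genes from −0.45 to 0.11, while core histone genes were at 1.82 and 2.25.

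Set directly against 1 µM i-BET151 at 24 h in the same fit, i-BET858 differed at 11 of 17157 transcripts (0.0641%), 4 higher and 7 lower. Of the genes named here, ZMYND8 was the one called, with a difference of 1.62 on the log2 scale (adjusted p = 0.0218 in edgeR). With i-BET858 ZMYND8 lay close to its DMSO level and was not called against it, so that most of this difference was a lower level with i-BET151. For HEXIM1 the difference was 0.64 (95% interval 0.38 to 0.89, adjusted p = 0.0649), for CDKN1A 0.95 (95% interval 0.60 to 1.29, adjusted p = 0.0485), for H2AC11 0.45 (95% interval 0.12 to 0.78, adjusted p = 0.271), for OAS1 −0.94 (95% interval −1.54 to −0.35, adjusted p = 0.194) and for BID −0.56 (95% interval −0.92 to −0.19, adjusted p = 0.214), none of them called. CDKN1A passed the adjusted p and missed only the 2-fold threshold. The same held for other named genes, among them CDKN2B (0.63), BMP7 (−0.69), H3C8 (0.73) and MAP1LC3B (0.55). A difference that was not called does not show that the compounds acted alike.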

How the data were processed

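RNA was poly-A enriched and sequenced in paired reads, and the notes of the authors name STAR and GRCh38. The authors deposited raw counts per gene, of which the tables at 4 h and 24 h were used. The annotation and strand setting are not given in the sources used here. Gene identifiers were joined to GENCODE 44 on GRCh38, and 58472 of 58825 matched. The deposited counts were tested with edgeR 4.0.16 (R 4.3.3; TMM scaling, filterByExpr, quasi-likelihood test, Benjamini-Hochberg adjustment) in a fit over the 9 libraries of 24 h, the change between times in a fit over 18, and DESeq2 1.42.0 was an alternative. The totals were 27534213 to 46299994 counts a library, and floors cover counting error only. The labels give replicate numbers without naming separate cultures, so that p-values measure the spread between these libraries. Same-numbered libraries of different groups deviated together from their group means in all 9 combinations (correlation 0.161 to 0.352). Libraries numbered 1 and 2 did so too (0.202 to 0.326), and those numbered 3 deviated the opposite way from both, so that the numbers chiefly set replicate 3 apart. A fit with the number as a block was run, which made no lead count move by over 1.5 times. Alternatives covered scaling, filters, thresholds, thinning, leaving out each library and replicates 1 and 2 alone. The script was tested on simulated data. Named were the 6 called protein-coding genes with the largest rise, fall, gain and loss, and noncoding genes by the rule for folds. The 3 of each list and direction with the smallest adjusted p were also named. So were members of the BET, P-TEFb, kinase inhibitor, linker histone, BCL2 and MYC lists, and genes the study names. Markers and some other list members, such as STAT2, KRT8 and BRIX1, were chosen after their values were seen, as was the motif GAAANNGAA. Some items are not reported here. The members and lists were chosen with earlier results of these data known.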

Additional observations from a re-analysis of the deposited data

Results flagged for a closer look

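The effect of i-BET858 differed between 4 h and 24 h at 2738 transcripts by the drug-by-time interaction in edgeR, which tests the difference itself. Among the genes named in the text, those with the 5 largest called changes in each direction are given, on the log2 scale as the effect at 24 h minus the effect at 4 h. The upward changes were 2.34 for FANCB, 2.31 for MAP1B, 2.06 for MGA, 1.96 for KRT6A and 1.93 for BCL2L1. The downward changes were −5.38 for TRIM22, −4.95 for IFI44L, −4.94 for ERP27, −4.54 for VTCN1 and −4.52 for CRB2. TRIM22, IFI44L, ERP27, VTCN1 and CRB2 went in the same direction in all 9 pairs of libraries at 24 h. TRIM22 stood at 3.58, 2.24 and 10.2 CPM in DMSO replicates 1, 2 and 3 at 24 h, so that the size of its change rests on controls that differ among themselves. No group held 4 or more libraries, and single libraries were not tested for standing apart.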

How the results depend on the processing

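The count of called transcripts stayed within 1.5 times of 3234 under every setting but the threshold. With the adjusted p alone it was 7158 (3510 higher and 3648 lower), and with a fold change of at least 1.5 it was 5370 (2480 higher and 2890 lower). DESeq2 gave 3471, and scaling to library size gave 1107 higher and 2130 lower. Leaving out 1 library gave 2905 to 3181 calls, 1179 to 1331 higher and 1726 to 1859 lower, with the lowest counts without i-BET858 replicate 1. The change of effect between times was called at 2416 to 2829 transcripts with 1 library left out and at 4941 with the adjusted p alone. In a paired fit, with a block for each replicate number, 3463 transcripts were called (1411 higher and 2052 lower), 3196 of the 3234 among them, and 138 of 140 counts of called members stayed within 1.5 times. Under every setting but the thresholds, 85 of these 140 counts did. Of 249 named genes, 222 kept call and direction under every setting. The log2 fold change of 6 genes that were not called changed sign under some settings. BBC3 (0.053) gave −0.047 to 0.19 with 1 library left out, −0.041 when scaled to library size and −0.064 in replicates 1 and 2 alone. CDKN1B (0.057) gave −0.030 when scaled to library size. EPCAM (0.025) gave −0.061 to 0.14 with 1 library left out and −0.065 when scaled to library size. LARP7 (−0.16) gave −0.52 to 0.15 with 1 library left out. MUC16 (−0.29) gave −0.72 to 0.12 with 1 library left out. PAX8 (−0.023) gave −0.13 to 0.077 with 1 library left out, 0.0021 without a filter and 0.014 in the fit over 18 libraries. The cause of these differences was not tested. Depth limits the folds of transcripts with few control counts, such as SH3GL2 and GFPT2.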

Other observations

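The shares of members called are to be set against 7.65% higher and 11.2% lower of all tested transcripts. Secreted and membrane proteases of the ADAM and ADAMTS families fell at 6 of 27 tested (22.2%) and rose at 2 (7.41%). ADAMTS15, which cleaves proteoglycans of the matrix, fell from 144 ± 4.15 to 36.8 ± 6.86 CPM, ADAMTS1 from 126 ± 1.27 to 40.3 ± 3.24 CPM and ADAMTS8 from 18.1 ± 5.33 to 3.16 ± 0.576 CPM, while ADAMTS7 rose from 4.25 ± 0.962 to 21.3 ± 4.98 CPM. In the tumour necrosis factor superfamily, 6 of 18 genes fell (33.3%) and 3 rose (16.7%): the ligand TNFSF15 fell from 3.05 ± 0.810 to 0.722 ± 0.190 CPM and TNFSF9 (4-1BB ligand) rose from 6.43 ± 1.54 to 26.0 ± 1.91 CPM. Protocadherins, adhesion molecules of the nervous system, rose at 5 of 33 (15.2%) and fell at 1 (3.03%), with PCDH19 from 14.8 ± 1.32 to 54.5 ± 9.94 CPM and PCDH10 from 2.20 ± 0.125 to 13.9 ± 1.72 CPM. Of 18 clock genes, 4 fell (22.2%) and 0 rose, the largest in CPM being BHLHE41, a repressor of the clock, from 238 ± 24.3 to 68.7 ± 12.1 CPM. TRIM14, an adaptor of antiviral signalling, fell from 23.6 ± 0.377 to 3.37 ± 0.975 CPM and TRIM36 rose from 2.12 ± 0.384 to 29.1 ± 1.84 CPM. The S100 genes fell at 3 of 13 (23.1%), with S100A16 from 122 ± 31.8 to 40.4 ± 12.9 CPM. These genes were chosen after their values were seen, and all values are edgeR calls at 24 h with CPM as mean ± SD of 3 libraries.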
